A study of Mus musculus with 18 samples.

Results

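Fas, Tnfrsf1a, Tnfrsf1b, Tnfrsf10b, Fadd, Casp8, Cflar, Ripk1, Ripk3 and Mlkl encode death receptors and the proteins that carry their signal to apoptosis or necroptosis. These 10 of the 38887 genes in the deposited tables were chosen by symbol for what they are known to do, with earlier results of these data known. They were matched to the library values by Ensembl identifier. All 10 had enough counts to be tested in every comparison. The strongest change was the response to lipopolysaccharide (LPS, the endotoxin of Gram-negative bacteria). It raised Tnfrsf1b, Cflar, Mlkl, Fas, Casp8 and Tnfrsf1a in all 3 genotypes. Fadd was lowered, and Tnfrsf10b by less, with a call that some alternative settings did not keep. Between genotypes, Tnfrsf10b was the member that passed the main test, and only in GILZ KO against GILZ TG cells, with the higher expression in GILZ KO. No member passed that test against WT. The call of Tnfrsf10b after LPS was lost when certain single libraries were left out.

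Death receptors are members of the tumour necrosis factor (TNF) receptor superfamily with a cytoplasmic death domain. Upon ligand binding they recruit, directly or through other death domain proteins, the adaptor FADD, which brings in the initiator caspase-8, while cFLIP, the product of Cflar, resembles caspase-8 without its protease activity and holds it in check. When caspase-8 is inactive, the kinases RIPK1 and RIPK3 can assemble into the necrosome, RIPK3 phosphorylates the pseudokinase MLKL, and MLKL damages the plasma membrane in the form of cell death known as necroptosis. In macrophages this pathway can be entered through TNF receptors and through Toll-like receptors, LPS being the ligand of TLR4.

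The RNA came from bone marrow-derived macrophages (BMMs), that is bone marrow cells of adult female C57BL/6J mice cultured with the growth factor M-CSF. Cells were left untreated or received 100 ng/ml LPS for 4 h, with 3 preparations for each genotype and treatment and thus 18 libraries. The labels do not say whether an untreated and an LPS library with the same number came from the same mouse. Per the methods of the study, WT animals were Lyz2-Cre mice, which express Cre recombinase from the lysozyme 2 locus of myeloid cells, GILZ KO animals carried in addition a floxed exon of Gilz (glucocorticoid-induced leucine zipper, gene symbol Tsc22d3), and GILZ TG animals carried a Gilz cDNA behind a floxed stop cassette in the ROSA26 locus. Gene deletion and overexpression were thus set to occur in cells that use the Lyz2 promoter, and all 3 genotypes were described as carrying Cre.

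The labels were checked on the values in TPM (a level per transcript length, brought to the same sum in every library). Tsc22d3 was at 16.5 ± 2.08 TPM in untreated WT, 2.34 ± 0.461 in GILZ KO and 156 ± 3.93 in GILZ TG cells (SD, n = 3), and at 5.15 ± 0.627, 2.91 ± 0.392 and 132 ± 7.64 TPM after LPS. Lyz2 was at 12840 ± 2276 TPM in untreated WT but at 33.6 ± 10.6 in GILZ KO and 33 ± 18.3 in GILZ TG cells, so an effect of GILZ and an effect of the Lyz2 allele cannot be told apart in comparisons with WT. GILZ KO and GILZ TG did not have this difference from each other. The libraries held between 14583055 and 38557029 reads on genes, and libraries of 1 group correlated with at least 0.996 in log2(CPM + 1). All 7 macrophage markers were expressed in every library, with a summed level between 3825 and 5021 TPM. In the GILZ TG libraries, replicates 1, 2 and 3 also held 42.5, 97.6 and 11.4 summed TPM of 4 B-lineage markers without treatment and 43.1, 93.4 and 7.28 after LPS, against at most 2.25 in the other libraries. Replicates 1 and 2 of GILZ TG held 79.8 to 115 TPM of 6 stromal markers, against at most 21.8 elsewhere, and all GILZ TG libraries held 50.2 to 388 TPM of 5 neutrophil-lineage markers, of which other libraries had at most 58.2. Cd3e and Cd3d of T cells were at 0 in every library. Comparisons between genotypes that rest on GILZ TG are therefore given with and without its replicates 1 and 2.

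Since LPS moved most of the members together, the bases upstream of the transcription start are shown for the 4 with the largest LPS response. The sequences are from RefSeq on GRCm38.p6, run 5′ to 3′ on the strand of the gene, and cover the 250 bases before the start: Tnfrsf1b at chr4:145246871-145247120 (minus strand), Fas at chr19:34290409-34290658 (plus), Cflar at chr1:58711241-58711490 (plus) and Mlkl at chr8:111338206-111338455 (minus). Capitals mark matches, on either strand, to 4 motifs known for factors active in LPS-treated macrophages, namely the κB consensus, the interferon response motif GAAANNGAAA, the AP-1 motif TGANTCA and the STAT motif TTCNNNGAA.
Tnfrsf1b: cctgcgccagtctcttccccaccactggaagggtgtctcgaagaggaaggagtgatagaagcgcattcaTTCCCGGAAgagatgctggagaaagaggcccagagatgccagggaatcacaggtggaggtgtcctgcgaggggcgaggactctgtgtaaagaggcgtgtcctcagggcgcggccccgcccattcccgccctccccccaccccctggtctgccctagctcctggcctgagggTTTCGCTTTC
Fas: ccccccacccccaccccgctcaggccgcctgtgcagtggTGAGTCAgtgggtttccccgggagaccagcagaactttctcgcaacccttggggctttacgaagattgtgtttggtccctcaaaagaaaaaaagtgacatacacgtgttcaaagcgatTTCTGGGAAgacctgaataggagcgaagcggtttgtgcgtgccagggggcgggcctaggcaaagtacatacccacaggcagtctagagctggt
Cflar: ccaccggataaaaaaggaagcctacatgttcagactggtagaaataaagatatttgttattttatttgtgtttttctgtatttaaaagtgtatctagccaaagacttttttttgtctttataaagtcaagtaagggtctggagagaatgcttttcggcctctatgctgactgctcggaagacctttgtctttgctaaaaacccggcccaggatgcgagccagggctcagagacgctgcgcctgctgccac
Mlkl: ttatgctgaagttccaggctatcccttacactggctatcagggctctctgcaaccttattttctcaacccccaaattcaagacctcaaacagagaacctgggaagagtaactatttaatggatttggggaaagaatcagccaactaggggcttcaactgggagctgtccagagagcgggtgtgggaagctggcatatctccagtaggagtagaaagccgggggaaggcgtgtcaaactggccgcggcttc
Tnfrsf1b held TTCNNNGAA at -181 to -173 and GAAANNGAAA, on the other strand, at -10 to -1 from the start. Fas held TGANTCA at -211 to -205 and TTCNNNGAA at -93 to -85. In the windows of Cflar and Mlkl none of the 4 motifs was found, which says only that these letters are not in these windows. Of the other members, 9 of the 10 in all being in the RefSeq table, Tnfrsf1a held TTCNNNGAA at -244 to -236 and the second promoter of Ripk1 held it at -108 to -100 and at -11 to -3, while Fadd, Casp8 and Ripk3 held none. Tnfrsf10b is the member without an entry. No κB consensus was found in any of the 10 windows. Among 32851 promoters of the same length, 7.25% held the κB consensus, 2.98% GAAANNGAAA, 6.75% TGANTCA and 7.02% TTCNNNGAA. A match is a description of the letters and not a site of binding.

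Without treatment, the genes for both TNF receptors were the most abundant members and Fadd and Tnfrsf10b the least abundant. In WT cells Tnfrsf1a was at 140 ± 2.91 TPM, Tnfrsf1b at 122 ± 10.8 and Casp8 at 73.5 ± 1.85. Each of these stood clear of the next, with no overlap between libraries. Ripk3 (57.8 ± 6.72), Ripk1 (48.8 ± 5.62) and Cflar (47.9 ± 7.57) followed, and the libraries of neighbours in this order overlapped. Mlkl was at 37.5 ± 1.84 and Fas at 13.9 ± 3.69 TPM. Tnfrsf10b at 8.15 ± 0.731 and Fadd at 7.97 ± 0.557 overlapped at the low end. GILZ KO and GILZ TG cells had the same first 3 members in the same order and Mlkl and Fas in places 7 and 8.

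**Figure D1:**
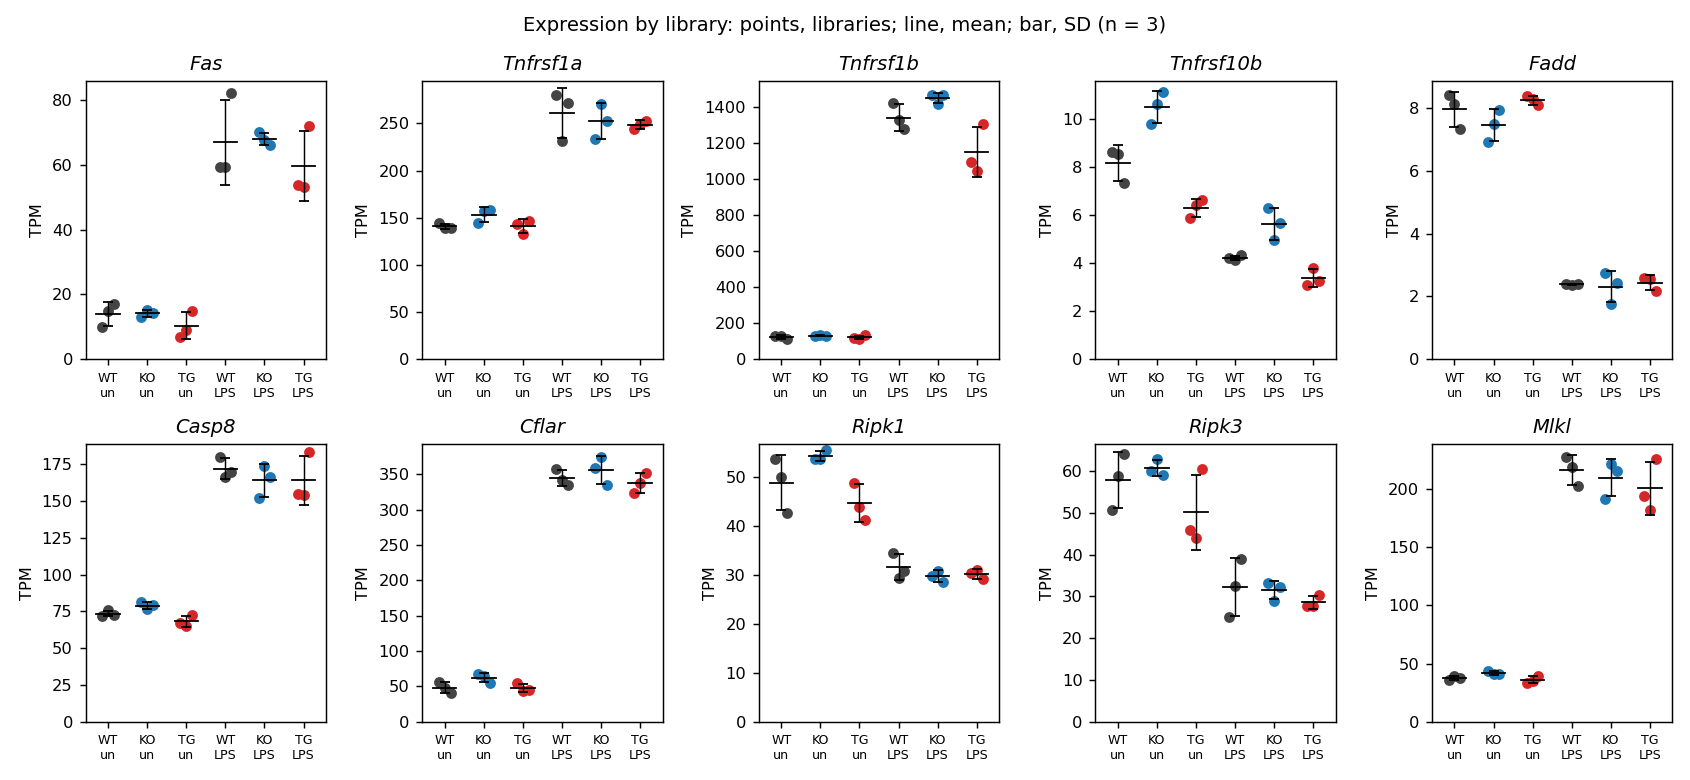
Expression in TPM (vertical axes, from 0) of the 10 genes in the 6 groups. Points are libraries, lines the mean and bars the SD (n = 3), and Tnfrsf1b is seen to go from 110 to 132 TPM in untreated libraries to 1044 to 1465 TPM after LPS, whereas Fadd goes from 6.92 to 8.43 down to 1.76 to 2.73 TPM.

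To find out how LPS changed the pathway, LPS and untreated libraries of each genotype were compared on the counts with edgeR's quasi-likelihood test, with p-values adjusted by Benjamini-Hochberg over 13169 genes and a threshold of 0.05. Of the 10 members, 8 passed in WT (6 higher, 2 lower), 9 in GILZ KO (6 and 3) and 8 in GILZ TG cells (6 and 2). The share of all tested genes that passed was 68.6%, 68.5% and 68.7%, so passing was common. Without replicates 1 and 2 a single library is left in each GILZ TG group, so only effect sizes are given for that fit. The log2 fold changes in GILZ TG were then 3.98 for Tnfrsf1b, 3.71 for Cflar, 3.15 for Mlkl and 3.1 for Fas. Casp8 was at 1.96, Tnfrsf1a at 1.46, Ripk1 at 0.07, Ripk3 at -0.32, Tnfrsf10b at -0.36 and Fadd at -1.24. Of all genes, 33.5% were called higher and 35.1% lower in WT, 33.2% and 35.4% in GILZ KO, and 33.6% and 35.1% in GILZ TG cells. On the TMM-normalized counts, LPS and untreated libraries did not overlap for 8, 10 and 8 members and for 70.7%, 75.4% and 70.5% of all genes. The median log2 fold change of the members was 1.67, 1.53 and 1.66 against -0.02 for all genes. A log2 fold change over 2 together with an adjusted p-value under 0.05 was seen for Tnfrsf1b, Cflar, Mlkl and Fas in each genotype, and for 8.31%, 8.07% and 8.16% of all genes. In bulk RNA, a smaller number of cells of one type and less RNA per cell cannot be told apart, and p-values cover the spread between these preparations.

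Tnfrsf1b, the gene for TNF receptor 2 (chr4:145213463-145246870), which lacks a death domain and signals through TRAF proteins, had the largest response of the members. In WT cells it was at 127, 130 and 110 TPM without treatment and at 1423, 1326 and 1275 TPM with LPS. In GILZ KO cells it went from 130, 132 and 126 to 1464, 1418 and 1465 TPM, and in GILZ TG cells from 116, 112 and 132 to 1096, 1044 and 1306 TPM. Every LPS library was thus far above every untreated library. The log2 fold change of the counts was 4.09 ± 0.11 in WT, 4.12 ± 0.11 in GILZ KO and 3.89 ± 0.11 in GILZ TG (SE; adjusted p = 1.83e-15, 2.14e-15 and 3.16e-15 by edgeR), and the mean TPM was 11, 11.2 and 9.56 times as high.

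Tnfrsf1a encodes TNF receptor 1 (chr6:125349362-125362484), the receptor with a death domain that binds TNF on most cells. Its untreated levels were 144, 139 and 139 TPM in WT, 144, 157 and 158 in GILZ KO and 143, 133 and 147 in GILZ TG cells. With LPS they were 280, 231 and 272 TPM, 233, 271 and 253 TPM, and 244, 249 and 253 TPM. The groups did not overlap in any genotype, and the increase was smaller than that of Tnfrsf1b. The log2 fold change of the counts was 1.51, 1.38 and 1.46 (SE 0.07 each), with adjusted p-values of 2.56e-12, 9.74e-12 and 4.09e-12 by edgeR. Hence the ratio of Tnfrsf1b to Tnfrsf1a, taken on TPM within each library, went from 0.792 to 0.936 in untreated WT cells to 4.69 to 5.74 after LPS, from 0.799 to 0.908 up to 5.24 to 6.27 in GILZ KO, and from 0.812 to 0.894 up to 4.2 to 5.17 in GILZ TG cells.

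Fas, the receptor for Fas ligand (chr19:34290666-34327772), was scarce without treatment and rose with LPS. It was at 9.79, 14.8 and 17 TPM in WT, 13.1, 15.3 and 14.2 in GILZ KO and 6.92, 9.12 and 15 in GILZ TG cells, and after LPS at 59.4, 59.5 and 82.2 TPM, 70.2, 67.8 and 66.3 TPM, and 53.9, 53.2 and 72.2 TPM. LPS libraries were above all untreated ones, but in WT and GILZ TG cells Fas varied more between untreated libraries than the other members, with a coefficient of variation of 26.6% and 40.3%. Its log2 fold change of 2.96 ± 0.23 in WT, 2.94 ± 0.23 in GILZ KO and 3.21 ± 0.24 in GILZ TG (SE; adjusted p = 3.77e-09, 5.56e-09 and 1.97e-09 by edgeR) therefore has the largest error among the members.

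Tnfrsf10b (chr14:69767472-69784411), the mouse receptor for the death ligand TRAIL, went down. WT cells had 8.6, 8.55 and 7.31 TPM without treatment and 4.21, 4.14 and 4.31 TPM with LPS. GILZ KO cells had 9.79, 10.6 and 11.1 against 6.27, 4.96 and 5.65 TPM, and GILZ TG cells 5.86, 6.41 and 6.6 against 3.1, 3.78 and 3.24 TPM. No LPS library reached an untreated library of its genotype. On the counts the change was small, -0.32 ± 0.09 in WT, -0.26 ± 0.09 in GILZ KO and -0.27 ± 0.09 in GILZ TG on the log2 scale (SE; adjusted p = 0.00444, 0.0171 and 0.0135 by edgeR). The call was lost in GILZ KO cells with DESeq2 (-0.22, adjusted p = 0.0633) and without LPS replicate 2 (-0.19, 0.0929 by edgeR). It was also lost in GILZ TG cells without LPS replicate 1 (-0.21, 0.0786 by edgeR). Without replicates 1 and 2 of both treatments, which leaves a single GILZ TG library in each, the value in GILZ TG cells was -0.36. The ratio of Tnfrsf10b to Fas fell from 0.43 to 0.878 in untreated WT libraries to 0.0524 to 0.0709 after LPS.

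Downstream of the receptors, the adaptor Fadd and its partners Casp8 and Cflar moved in opposite directions. Fadd (chr7:144577318-144582463) was at 8.43, 8.13 and 7.35 TPM in untreated WT cells and at 2.39, 2.36 and 2.39 TPM after LPS. In GILZ KO cells it went from 6.92, 7.51 and 7.95 to 2.73, 1.76 and 2.43 TPM and in GILZ TG cells from 8.38, 8.29 and 8.1 to 2.58, 2.56 and 2.16 TPM. Fadd was therefore lower in each LPS library than in any untreated one. The counts gave a log2 fold change of -1.11 ± 0.1, -1.04 ± 0.11 and -1.12 ± 0.1 (SE; adjusted p = 3.87e-08, 1.66e-07 and 2.96e-08 by edgeR). The antisense gene Faddos overlaps Fadd, and the strand setting of the counting is not given in the sources used here, so reads of both may not have been kept apart.

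Casp8 (chr1:58795374-58847503), the initiator caspase that starts apoptosis and cleaves RIPK1, rose in each genotype, to 2.34, 2.08 and 2.41 times its untreated mean TPM in WT, GILZ KO and GILZ TG cells. It was at 72.2, 75.6 and 72.6 TPM in untreated WT and at 180, 166 and 170 TPM in LPS-treated WT cells. GILZ KO cells had 81.2, 76.3 and 79 TPM without and 152, 174 and 166 TPM with LPS, and GILZ TG cells had 66.8, 65 and 72.7 and then 155, 154 and 183 TPM. The 2 treatments did not overlap, and the log2 fold change of the counts was 1.82, 1.67 and 1.86 (SE 0.09 each; adjusted p = 7.7e-12, 2.94e-11 and 6.1e-12 by edgeR). With Fadd falling, the ratio of Casp8 to Fadd in TPM went from 9.25 ± 0.655 to 72.3 ± 2.72 in WT, from 10.6 ± 0.977 to 74.4 ± 22.3 in GILZ KO and from 8.26 ± 0.619 to 68.4 ± 14.2 in GILZ TG cells (SD, n = 3).

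Cflar (chr1:58711508-58758884), a neighbour of Casp8 on chromosome 1, rose more than Casp8. The untreated values were 55.9, 47.1 and 40.8 TPM in WT, 66.9, 64.2 and 55.1 in GILZ KO and 54.9, 44.1 and 44.9 in GILZ TG cells. After LPS they were 358, 342 and 335 TPM, 359, 375 and 335 TPM, and 323, 338 and 352 TPM, so that the 9 LPS libraries lay close together and far above the untreated ones. The log2 fold change of the counts was 3.61, 3.35 and 3.57 (SE 0.09 each), with adjusted p-values of 1.21e-15, 3.12e-15 and 1.45e-15 by edgeR. In untreated libraries there was less Cflar than Casp8, with TPM ratios of 0.562 to 0.773 in WT, 0.697 to 0.841 in GILZ KO and 0.618 to 0.822 in GILZ TG cells. After LPS the order was turned in all libraries, with ratios of 1.97 to 2.06, 2.02 to 2.36 and 1.92 to 2.19.

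**Figure D2:**
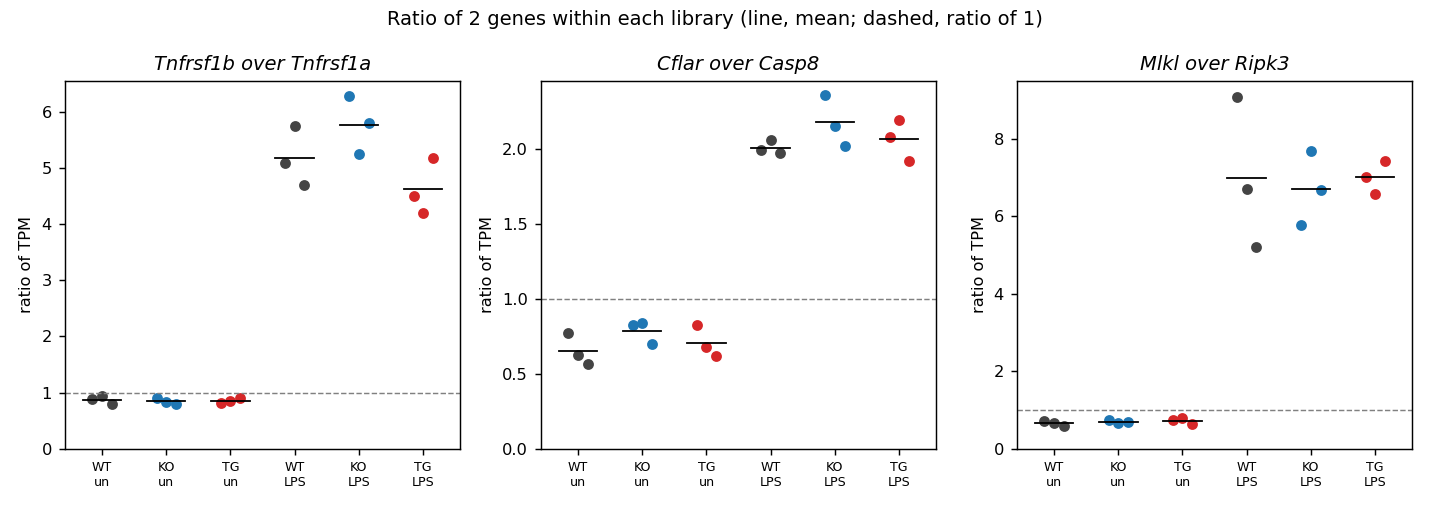
Ratio of 2 genes in TPM (vertical axes, from 0) within each library of the 6 groups, with points for libraries, lines for means and a dashed line at a ratio of 1. All 3 ratios lie below 1 in the 9 untreated libraries and above 1 in the 9 LPS libraries, with Cflar over Casp8 at no more than 0.841 before and no less than 1.92 after.

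The kinases of the necrosome and its effector did not move together. Mlkl (chr8:111311797-111338177) rose from 35.7, 39.4 and 37.5 TPM to 228, 219 and 203 TPM in WT cells. In GILZ KO cells the values were 43.8, 41.1 and 41.1 and then 192, 222 and 216 TPM, and in GILZ TG cells 33.5, 35.1 and 39.4 and then 194, 182 and 226 TPM. No LPS library came near an untreated one. The log2 fold change of the counts was 3.12, 2.96 and 3.11 (SE 0.11 each; adjusted p = 9.05e-14, 2.13e-13 and 1.01e-13 by edgeR).

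For Ripk1 (chr13:34002363-34037147), the kinase shared by the TNF receptor complex and the necrosome, the outcome depended on the scale. In TPM it was lower after LPS in each genotype, from 53.7, 50.1 and 42.7 to 34.5, 29.4 and 30.9 in WT, from 53.7, 53.8 and 55.5 to 29.9, 30.9 and 28.6 in GILZ KO and from 48.9, 44 and 41.2 to 30.5, 31.1 and 29.1 in GILZ TG cells. On the TMM-normalized counts the log2 fold change was -0.1 in WT (95% interval -0.24 to 0.05, adjusted p = 0.222), -0.32 in GILZ KO (-0.47 to -0.18, 0.000499) and -0.02 in GILZ TG cells (-0.16 to 0.13, 0.842), and only that of GILZ KO cells passed edgeR's test. The call in WT was gained without WT LPS replicate 1 (-0.17, adjusted p = 0.0442) and without untreated replicate 3 (-0.2, 0.0183). Ripk1 overlaps Serpinb6a on the other strand.

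Ripk3 (chr14:55784995-55788865), the kinase that phosphorylates MLKL, was at 50.6, 58.9 and 64 TPM in untreated WT cells and at 25.1, 32.6 and 38.9 TPM after LPS. GILZ KO cells had 60, 63 and 59.2 and then 33.3, 29 and 32.3 TPM, and GILZ TG cells 45.8, 44.1 and 60.5 and then 27.7, 27.7 and 30.4 TPM. The TPM of all LPS libraries was below that of the untreated libraries, but the counts did not pass the test, with log2 fold changes of -0.22 in WT (95% interval -0.53 to 0.08, adjusted p = 0.182 by edgeR), -0.31 in GILZ KO (-0.62 to 0, 0.0732) and -0.18 in GILZ TG (-0.49 to 0.12, 0.277). An alternative fit with a replicate block, which pairs untreated and LPS libraries by their number, gave -0.16 in GILZ TG cells (adjusted p = 0.0454 by edgeR). With it 9 members were called there, and 9515 of 13169 genes. Ripk3 was also called under 8 alternatives in GILZ KO cells, among them the fit of only the 6 libraries compared (-0.32, adjusted p = 0.000606) and that without a filter on low counts (-0.33, 0.035), and in WT cells without untreated replicate 1 (-0.36, 0.0434) or LPS replicate 3 (-0.36, 0.0442). Since Mlkl rose, the ratio of Mlkl to Ripk3 in TPM went from 0.653 ± 0.0605 to 7 ± 1.94 in WT, from 0.692 ± 0.0391 to 6.71 ± 0.956 in GILZ KO and from 0.726 ± 0.0725 to 7.01 ± 0.435 in GILZ TG cells. Ripk3 and Ripk1 stayed near each other, with a mean ratio of 1.21, 1.12 and 1.14 before and 1.03, 1.06 and 0.948 after LPS.

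The 2 scales differ for all genes. The median log2 fold change of all genes was -0.02 in each genotype on the TMM-normalized counts but -0.51, -0.52 and -0.51 in log2(TPM + 1), and the share of called genes that were higher after LPS was 48.9%, 48.4% and 48.9% on the former and 19.8%, 18.8% and 19.3% on the latter. With limma on log2(TPM + 1) all 10 members were called in all genotypes and none changed direction. On that scale 10670, 10717 and 10638 of the 13169 tested genes were called, so a call was common there. Ripk1 was then at -0.61 in WT and -0.55 in GILZ TG cells and so close to the median of all genes, whereas Ripk3 was at -0.84, -0.93 and -0.78. Tnfrsf10b was at -0.81, -0.8 and -0.74 on that scale, against -0.32, -0.26 and -0.27 on the counts.

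**Figure D3:**
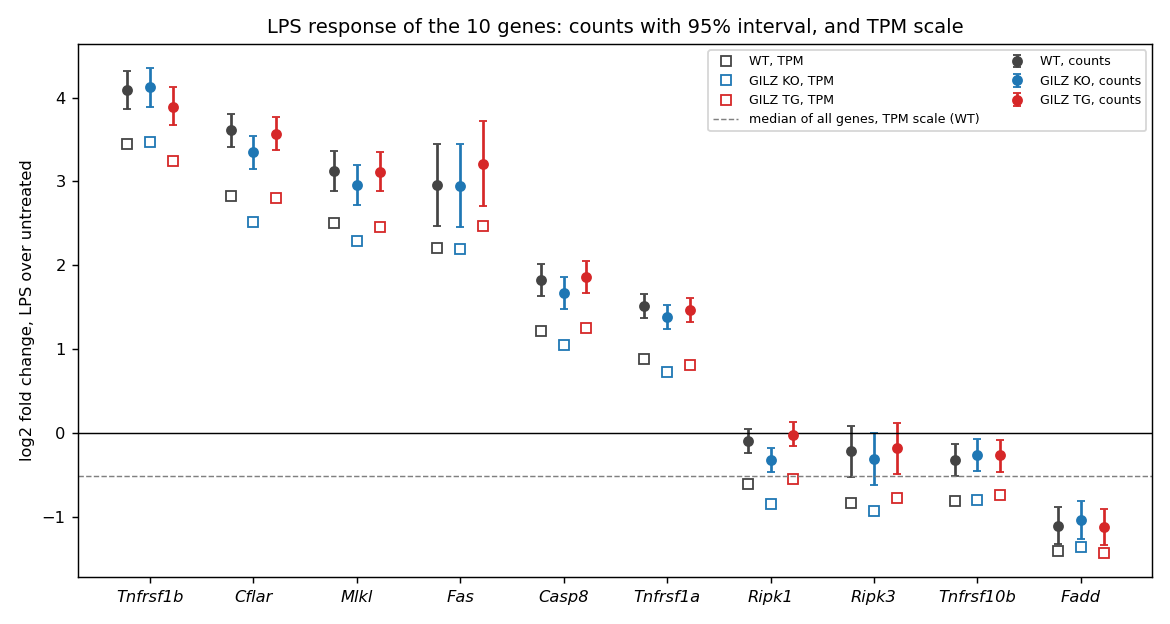
Log2 fold change of LPS over untreated (vertical axis) for the 10 genes in 3 genotypes. Filled points are edgeR estimates from counts with their 95% interval, open squares are values of log2(TPM + 1), and the dashed line is the median of all genes on the latter scale in WT cells (-0.51), near which Ripk1 lies at -0.61.

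To compare genotypes, the 9 libraries of each treatment were fitted together. Tnfrsf10b was the single member called, and only between GILZ KO and GILZ TG cells. In untreated cells its TPM was 9.79 to 11.1 in GILZ KO, 7.31 to 8.6 in WT and 5.86 to 6.6 in GILZ TG, and after LPS 4.96 to 6.27, 4.14 to 4.31 and 3.1 to 3.78. Thus in both treatments the 3 GILZ KO libraries lay above the 3 WT libraries and these above the 3 GILZ TG libraries. On the TMM-normalized counts, untreated libraries did not overlap with WT for 17.5% (GILZ KO) and 16.7% (GILZ TG) of all genes. After LPS these shares were 17.0% and 16.5%. Of the members, 3 and 1 were apart from WT in untreated cells and 1 and 1 after LPS. The log2 fold change of GILZ KO against GILZ TG was 0.7 ± 0.08 untreated (SE; adjusted p = 0.00361 by edgeR) and 0.74 ± 0.11 after LPS (adjusted p = 0.00983), that is 1.63-fold and 1.67-fold. In these comparisons 4.94% and 2.60% of all genes were called. Against WT, GILZ KO was at 0.32 (95% interval 0.14 to 0.51, adjusted p = 0.311) untreated and 0.41 (0.17 to 0.65, 0.272) after LPS, and GILZ TG at -0.38 (-0.56 to -0.19, 0.09) and -0.33 (-0.57 to -0.08, 0.194), none of which passed.

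Without replicates 1 and 2 of GILZ TG, the difference of Tnfrsf10b between GILZ KO and GILZ TG was 0.62 untreated (adjusted p = 0.0794 by edgeR) and 0.76 after LPS (0.118), and the single GILZ TG library left is taken to vary like the other groups. In that fit 34 of all genes were called in either treatment, against 623 and 316 with all libraries. The call after LPS was also lost without GILZ KO LPS replicate 1 (0.67, adjusted p = 0.0718), GILZ KO LPS replicate 3 (0.72, 0.0504) or GILZ TG LPS replicate 1 (0.68, 0.0506).

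The other members were called in no genotype comparison. In untreated cells 9 of the 10 members, all but Fadd, had a higher value in GILZ KO than in GILZ TG, and the median of all 10 was 0.23 on the log2 scale against 0 for all genes. The libraries of 6 members did not overlap, against 31.4% of all genes, and 6 had an unadjusted p-value under 0.05, against 24.6% of all genes. Among them Cflar was at 0.27 (95% interval 0.1 to 0.44, adjusted p = 0.065 by edgeR) and Ripk1 at 0.25 (0.1 to 0.4, 0.0593), Mlkl at 0.22 (0.03 to 0.41, 0.157), Casp8 at 0.17 (0.03 to 0.3, 0.124) and Fadd at -0.18 (-0.33 to -0.02, 0.153). DESeq2 called Cflar and Ripk1 in addition (adjusted p = 0.019 and 0.0174), and 1218 of 12621 genes against 623 with edgeR. With 1 library left out, edgeR called between 79 and 1306 of all genes. Without GILZ TG untreated replicate 3, 4 members were called, with Casp8 (0.22, adjusted p = 0.0336), Ripk3 (0.4, 0.044) and Mlkl (0.3, 0.0385) added to Tnfrsf10b. Untreated GILZ TG replicate 3 also held 11.4 summed TPM of B-lineage markers. Its 50.2 TPM of neutrophil-lineage and 9.66 of stromal markers lay within the range of the WT and GILZ KO libraries of both treatments. Several of the member values came with GILZ TG replicates 1 and 2, the libraries with the most B-lineage and stromal transcripts. Fas was at 6.92 and 9.12 TPM there and at 15 TPM in replicate 3, and its log2 fold change of GILZ KO against GILZ TG was 0.43 (-0.14 to 1.01, adjusted p = 0.33) with all libraries and -0.04 without these replicates. In the same way Ripk3 went from 0.24 to -0.04, Mlkl from 0.22 to 0.05 and Casp8 from 0.17 to 0.05, whereas Cflar (0.32) and Ripk1 (0.34) did not become smaller. The part of the other cells in these values was not tested.

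After LPS, GILZ KO and GILZ TG libraries did not overlap for 2 members, Tnfrsf10b and Tnfrsf1b, and for 23.2% of all genes. These 2 members were also the ones with an unadjusted p-value under 0.05, against 19.1% of all genes. Tnfrsf1b was at 1418 to 1465 TPM in GILZ KO and 1044 to 1306 TPM in GILZ TG cells. Its log2 fold change was 0.33 (95% interval 0.1 to 0.55, adjusted p = 0.107 by edgeR), with DESeq2 0.32 (adjusted p = 0.0334), without GILZ TG LPS replicate 3 0.45 (0.00546) and without replicates 1 and 2 of GILZ TG 0.11. The remaining 8 members were between -0.08 and 0.18 in this comparison.

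Comparisons with WT gave no member past the threshold with edgeR. In GILZ KO against WT, 2 members untreated (Tnfrsf10b and Cflar) and 1 after LPS (Tnfrsf10b) had an unadjusted p-value under 0.05, against 9.60% and 9.63% of all genes, and DESeq2 and limma on log2(TPM + 1) called 0 in both. With edgeR 0.0951% and 0.0822% of all genes were called. Cflar was at 0.28 in untreated cells (0.11 to 0.44, adjusted p = 0.323). In GILZ TG against WT, the unadjusted count was 1 (Tnfrsf10b) and 2 (Tnfrsf10b and Tnfrsf1b), against 14.1% and 15.2% of all genes, DESeq2 called 1 (Tnfrsf10b, adjusted p = 0.0365) and 0, limma 0 and 0, and 0.642% and 0.460% of all genes passed with edgeR. Apart from Fas and Ripk3, whose untreated intervals reached -1.01 and -0.52 in GILZ TG against WT, the intervals of the members other than Tnfrsf10b left room for differences of at most 0.44 on the log2 scale. Without replicates 1 and 2 of GILZ TG no member was called against WT either, and 26 and 43 of all genes were, against 81 and 56 with all libraries. In untreated cells Fas went from -0.44 to 0.04 and Ripk3 from -0.22 to 0.07 when they were left out, and after LPS Tnfrsf1b went from -0.22 to -0.01. Tnfrsf10b was at -0.3 untreated and -0.35 after LPS without them.

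**Figure D4:**
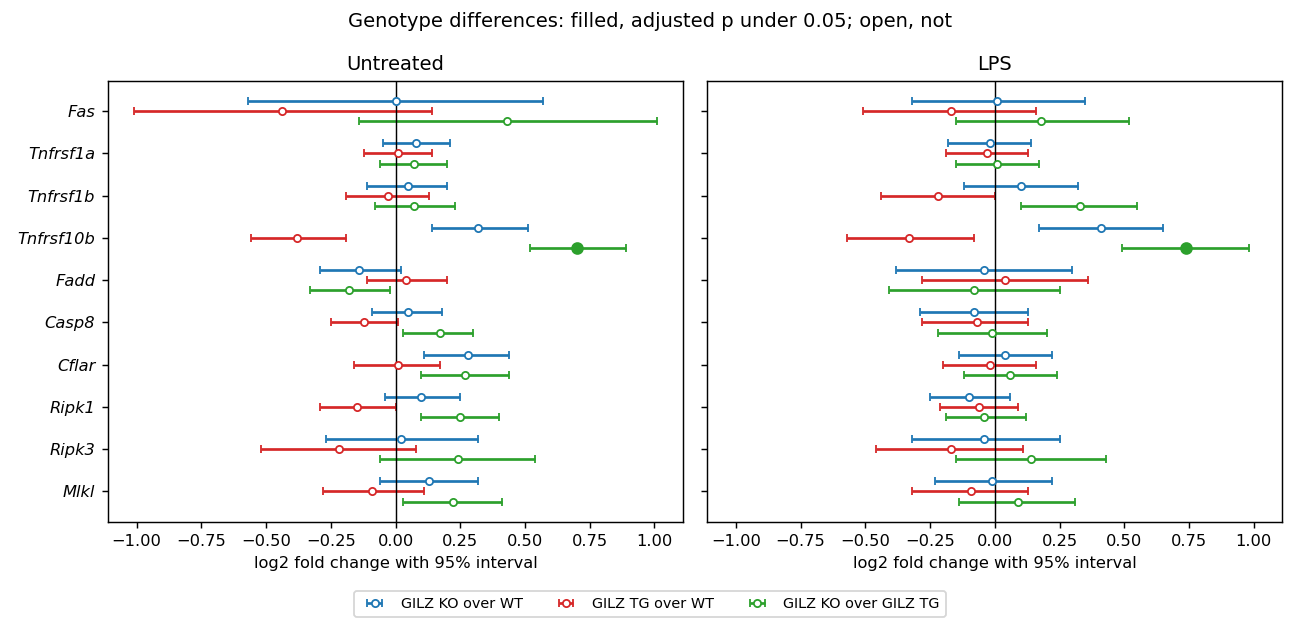
Log2 fold change between genotypes (horizontal axis) with 95% intervals from edgeR for the 10 genes, untreated and after LPS. Filled points have an adjusted p-value under 0.05, and these are Tnfrsf10b in GILZ KO over GILZ TG at 0.7 untreated and 0.74 after LPS.

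Whether the LPS response itself differed between genotypes was tested by the interaction. No member was called in GILZ KO against WT, GILZ TG against WT or GILZ KO against GILZ TG, where edgeR called 2, 1 and 16 of all genes (0.0152%, 0.00759% and 0.121%) and DESeq2 and limma on log2(TPM + 1) called 0 members as well. Calls are not given for the fit without replicates 1 and 2 of GILZ TG, which leaves a single library in each GILZ TG group. With all libraries, an unadjusted p-value under 0.05 by edgeR was found for 2, 0 and 1 members and for 6.36%, 3.09% and 9.92% of all genes. The response of Cflar was lower by 0.26 in GILZ KO than in WT cells on the log2 scale, at -0.26 (95% interval -0.51 to -0.01, adjusted p = 0.752), and that of Ripk1 was at -0.23 (-0.43 to -0.02, 0.721). For Ripk1 in GILZ KO against GILZ TG cells it was -0.31 (-0.51 to -0.1, 0.23), so that the call of Ripk1 in GILZ KO alone is not a shown difference between genotypes. The differences of Tnfrsf10b were 0.06 (-0.21 to 0.33), 0.05 (-0.22 to 0.32) and 0.01 (-0.25 to 0.28).

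Genes around the 10 members were read from 5 lists. Of the death ligands, 6 were listed and 5 tested, of which 4 rose and 1 fell in each genotype. Tnf was the most abundant and went from 143 ± 14.8 to 2021 ± 131 TPM in WT cells (SD, n = 3), with a mean log2 fold change over the genotypes of 4.44. Tnfsf10, the gene for TRAIL, the ligand of the receptor that fell, went from 0.27 ± 0.0529 to 129 ± 12.5 TPM in WT, from 0.707 ± 0.315 to 106 ± 14.1 in GILZ KO and from 0.253 ± 0.0231 to 121 ± 1.02 TPM in GILZ TG cells, on average 8.9 on the log2 scale of the counts. Tnfsf15 went from 0.0567 ± 0.0153 to 12.8 ± 4.92 TPM and Lta, which encodes lymphotoxin alpha, from 0.347 ± 0.152 to 3.85 ± 0.414 TPM in WT cells. Tnfsf12, the gene for TWEAK, was the one that fell, by 0.37 on average. Fasl, the gene for the ligand of Fas, was listed at 0 in 17 of the 18 libraries and had 1 count in the other.

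Of 8 other death receptors and decoy receptors 5 were tested, of which 0 rose in any genotype, and 4 fell in WT and in GILZ KO and 3 in GILZ TG cells. The decoy receptor gene Tnfrsf11b, chosen after its values were seen, did not pass the test and was at 1.66, 0.32 and 0.91 in WT, GILZ KO and GILZ TG cells. Tnfrsf22 and Tnfrsf23, decoy receptors for TRAIL, were at -1.7 and -1.05 on average, and Tnfrsf21, the gene for death receptor 6, at -1.55. Tnfrsf21 was also the 1 gene of the 5 lists called between genotypes, with 19.2 ± 0.346 TPM in untreated GILZ KO, 16.2 ± 0.567 in WT and 13.4 ± 1.51 in GILZ TG cells. Its log2 fold change of GILZ KO against GILZ TG was 0.49 ± 0.09 (SE; adjusted p = 0.0188 by edgeR), and without GILZ TG replicates 1 and 2 it was 0.32 (adjusted p = 0.174).

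Of 24 genes for TNF receptor complex I and its ubiquitin regulators, 19 rose and 2 fell in each genotype. Tnfaip3, the gene for the ubiquitin-editing enzyme A20, was at 4.11 on average, Rnf31, the catalytic subunit of the linear ubiquitin ligase, at 3.01, the RIPK1 kinase Mapkapk2 at 3.01 and the ubiquitin ligase Birc3 (cIAP2) at 2.61. The 2 that fell were Tab1 at -1.28 and the adaptor Tradd at -0.25. Among 10 necrosome inputs and regulators, 7, 7 and 6 rose and 3, 2 and 3 fell. Here Zbp1 and Tlr3, whose products sense nucleic acids and can engage RIPK3, were at 6.24 and 4.66, Ticam1, which encodes the TLR adaptor TRIF, at 1.33 and the chaperone partner Cdc37 at 0.66, while the kinase Aurka was at -1.58 and the phosphatase Pgam5 at -0.53. Of 8 genes for membrane repair and rupture, 6, 7 and 7 rose and 0 fell, among them the ESCRT-III genes Chmp4b (1.73), Chmp2a (0.76) and Chmp2b (0.61) and Ninj1 (0.66), which acts in plasma membrane rupture.

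These counts are relative to the median of all genes in the scaling by TMM, and stand beside 33.5%, 33.2% and 33.6% of all genes called higher and 35.1%, 35.4% and 35.1% called lower in WT, GILZ KO and GILZ TG cells. In log2(TPM + 1), where that median was -0.51 in WT cells, the split in WT was 4 higher and 1 lower for the death ligands, 0 and 4 for the other receptors, 13 and 7 for complex I, 3 and 5 for the necrosome regulators and 1 and 4 for membrane repair, beside 16.1% of all genes called higher and 65% called lower. Of the 52 genes tested from the 5 lists, 17 had the other sign there in WT cells, of which 12 were called on the counts and 7 were called on both scales in opposite directions. These 7, chosen after their values were seen, were Rbck1 (0.24 on the counts and -0.43 in log2(TPM + 1)), Sharpin (0.23 and -0.33), Chuk (0.46 and -0.26), Hsp90aa1 (0.18 and -0.51), Hsp90ab1 (0.25 and -0.37), Vps4b (0.36 and -0.22) and Pdcd6ip (0.45 and -0.15). Of the genes named above, Cdc37, Chmp2b and Ninj1 had the other sign there in WT cells (-0.05, -0.02 and -0.04), and Chmp2a (0.1) was not called.

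The tables also give a mean transcript length of each gene, weighted by the abundance of its transcripts, which moves when the mix of transcripts moves. LPS and untreated libraries were compared with limma on log2 length, averaged over the genotypes, for 8823 genes whose length varied, and 8.98% were called. Tnfrsf10b and Fadd have a single transcript, and of the other 8 members 3 were called. Ripk1, with 4 transcripts of 1792 to 6472 bases, had a mean length of 3661 to 3755 bases in the 9 untreated libraries and of 3446 to 3519 bases in the 9 LPS libraries. Casp8, with 2 transcripts of 1917 and 2585 bases, went from 2513 to 2554 down to 2463 to 2491 bases. In both genes the treatments did not overlap, and the log2 ratios were -0.091 ± 0.006 for Ripk1 (SE; adjusted p = 4.08e-07 by limma) and -0.035 ± 0.003 for Casp8 (adjusted p = 1.37e-05). Cflar, with 12 transcripts of 351 to 6572 bases, went the other way from 3898 ± 219 to 4281 ± 128 bases (SD, n = 9), with overlap between 4032 and 4174 bases. Its log2 ratio was 0.137 ± 0.033 (adjusted p = 0.0181 by limma), which was not called with the replicate block (adjusted p = 0.0993) or without replicates 1 and 2 of GILZ TG (0.122, 0.227). Fas was at 0.042 ± 0.017 (adjusted p = 0.174) with all libraries and at 0.081 (adjusted p = 0.00413) without these replicates. Which transcripts changed was not tested, as the tables give values per gene.

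**Figure D5:**
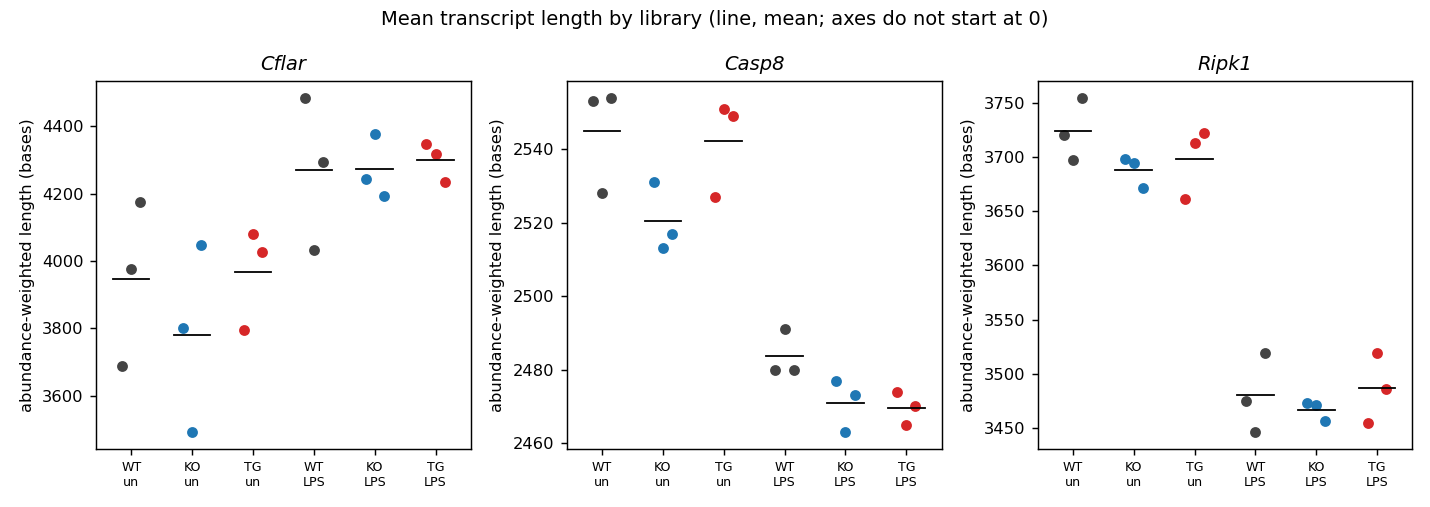
Mean transcript length in bases (vertical axes, not from 0), weighted by transcript abundance, by library in the 6 groups, with points for libraries and lines for means. For Ripk1 the 9 LPS libraries lie between 3446 and 3519 bases, below the 9 untreated ones at 3661 to 3755 bases.

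The gene with the most similar pattern to each member was found by Pearson's correlation of log2 CPM over the 18 libraries among 13028 genes, as a description in which the treatment sets most of the values. It was Clec4e for Fas (0.9966), Upp1 for Tnfrsf1a (0.9985), Malt1 for Tnfrsf1b (0.9988), Slfn5 for Cflar (0.9996), Slc28a2 for Mlkl (0.999) and Gid4 for Fadd (0.9919). Casp8 was most like another member, Mlkl (0.9983). The likeness was weaker for the members with a small LPS response, with Fubp1 for Tnfrsf10b (0.9007), Zfp592 for Ripk1 (0.9378) and Nqo1 for Ripk3 (0.9329).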

How the data were processed

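Poly(A) RNA of 18 libraries was sequenced, and per the methods the authors processed the reads with the grape-nf pipeline on GRCm38/mm10. The submitters' notes name FastQC 0.11.2 and DESeq2 1.40.2. The authors deposited for each library an expected count per gene, which is an estimated count of reads without normalization, the TPM, and transcript lengths in bases weighted by abundance. The authors' deposited DESeq2 tables were used only to pair Ensembl identifiers with symbols, and their log2 fold changes, test scores and p-values were not used. Blank last rows (14) were dropped.

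Expected counts were rounded, genes with low counts were removed by filterByExpr, and counts were scaled by TMM and tested with edgeR 4.0.16 (quasi-likelihood, R 4.3.3) with Benjamini-Hochberg adjustment over all genes tested (13169 in the fit of 18 libraries for LPS and its interactions, 12621 untreated and 12164 LPS-treated in fits of 9 libraries for genotypes). Intervals are 95% intervals of the model. Lengths were tested with limma 3.58.1. Tests were tested on simulated data. An exact permutation test of 3 against 3 libraries cannot go below a p-value of 0.1 and was not used. The depth of 14583055 to 38557029 reads (median 24450362) limits genes of low counts such as Fadd, which had 55 to 132 counts in LPS-treated GILZ KO libraries.

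Untreated and LPS libraries of GILZ TG with the same number in the labels deviated together from their group means, with correlations of 0.245, 0.362 and 0.576. Replicate 1 of GILZ TG did not correlate best with its own number, so a pairing is uncertain. The correlations were -0.024 to 0.233 in WT, where replicate 1 was best with its own number. They were -0.042 to 0.083 in GILZ KO, where replicates 2 and 3 were best with their own number. Between genotypes 2 of 18 pairs were over 0.1. The main tests used no replicate block. Alternatives were DESeq2 1.42.0, its size factors, no filter, limma on log2(TPM + 1) and log2(TPM + 0.1), the replicate block, other sets of libraries in the fit, and each library left out. Leaving out replicates 1 and 2 of GILZ TG was chosen after seeing the data. The members and the gene lists were chosen with earlier results of these data known. From each list, up to 4 genes per direction with the largest mean LPS response among those called in all genotypes were named, and each gene called between genotypes. A further list is not reported here. Promoters were read from RefSeq for 9 of 10 members. Figures were drawn with matplotlib 3.10.9.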

Additional observations from a re-analysis of the deposited data

How the results depend on the processing

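Of 2778 member values under an alternative, 2727 kept their side of the threshold, 11 lost a call and 40 gained one. No called value changed sign, while 96 values from 44 member comparisons had the other sign and were called under neither setting. The number of members called in GILZ TG against WT untreated went from 0 to 1 with DESeq2. In GILZ KO against GILZ TG untreated it went from 1 to 3 with DESeq2 and without a filter on low counts, to 2 with all 18 libraries in 1 fit and to 0 without GILZ TG replicates 1 and 2. After LPS it went from 1 to 2 with DESeq2 and to 0 without those replicates. With 1 library left out the counts were between 0 and 1 (GILZ TG against WT untreated), 1 and 4 (GILZ KO against GILZ TG untreated), 0 and 1 (GILZ TG against WT after LPS) and 0 and 2 (GILZ KO against GILZ TG after LPS). The cause was not tested.

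For genotype comparisons the replicate block grouped libraries of different genotypes by their number, and the labels do not say that these belong together. Of 18 such pairs within a treatment, 3 correlated best with their own number. With this block, GILZ KO against GILZ TG untreated had 3 members called, Cflar (adjusted p = 0.0156 by edgeR) and Ripk1 (0.0397) being added. Of all genes, it changed the number called there from 623 to 905. For LPS the block paired untreated and LPS libraries of a genotype by number. Ripk3 was then called in WT (-0.23, adjusted p = 0.00778 by edgeR) and GILZ KO (-0.31, 0.0016) as well. Among the 9 pairs of untreated and LPS libraries 5 correlated best with their own number. The count of all genes called between genotypes moved more than that of members, from 12 to 79 (GILZ KO against WT untreated), 81 to 315 (GILZ TG against WT untreated), 623 to 1218 (GILZ KO against GILZ TG untreated), 10 to 100, 56 to 274 and 316 to 715 (the same after LPS) when DESeq2 replaced edgeR, and without a filter on low counts it was 412 and 822 in the last 2. With 1 library left out it was between 5 and 31, 16 and 665, and 79 and 1306 untreated, and 4 and 25, 15 and 1067, and 24 and 1403 after LPS, in the same order, and the shares of all genes called move with it. For the interactions it went from 2 to 20, 1 to 2 and 16 to 150 with DESeq2.

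Fadd, Fas and Tnfrsf10b had the lowest counts of the members in any library, at 55, 109 and 115. How much depth adds to their spread was not tested.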
